A study of Mus musculus with 28 samples.

Results

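A set of 9 genes of Notch signalling and somite segmentation was described across chromatin maps of mouse mesodermal cultures. The genes were fixed by name as *Dll1*, *Dll3*, *Notch1*, *Lfng*, *Hes1*, *Hes7*, *Hey1*, *Hey2* and *Jag1*, and all 9 were found once among the 22367 protein-coding genes of the mm9 annotation. Chromatin immunoprecipitation with sequencing (ChIP-seq) had been performed at day 4 of differentiation, after embryonic stem cells (ESCs) had formed embryoid bodies for 2 days and had then been induced for 40 h with VEGF, Activin A and BMP4. For the histone marks H3K27ac and H3K27me3 and for Suz12, a subunit of the Polycomb complex that deposits H3K27me3, the cells were *Brg1* f/f;*Actin-CreER*, in which both groups carry the floxed *Brg1* alleles and a constitutive, *Actin*-driven CreER recombinase. Control cultures received the solvent tetrahydrofuran (THF) and treated cultures received 200 nM 4-hydroxytamoxifen (4-OHT) from day 2, which activates the recombinase and deletes *Brg1*, the ATPase of the BAF chromatin remodelling complex. There were 2 control and 2 treated replicates for H3K27ac and likewise for Suz12, and 3 of each group for H3K27me3. FLAG-tagged Brg1 was mapped in 3 replicates without 4-OHT. For the FLAG samples the labels name the floxed line and triplicates, whereas the study's methods name ESCs with a FLAG tag at the endogenous *Brg1* locus and duplicates. No 4-OHT-treated cells without floxed alleles were analysed here, so an effect of 4-OHT or of active CreER itself cannot be told apart from that of the deletion. The lists hold no measure of Brg1 after 4-OHT with which to check the deletion. The study itself checked it by Western blot, RNA-seq and Brg1 ChIP-exo, and reports that 4-OHT left differentiation of wild-type ESCs unaffected. It also proposes that some Brg1 activity might remain, because its protein is lost gradually while mesoderm is induced.

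In Notch signalling, ligands of the Delta-like and Jagged families on the surface of a cell bind Notch receptors on its neighbour, the receptor is cleaved, and its intracellular domain joins the DNA-binding protein Rbpj to activate targets such as the *Hes* and *Hey* repressor genes. In presomitic mesoderm, a tissue formed from the primitive streak, *Lfng* and *Hes7* are transcribed in waves that time the formation of somites, and *Dll1* and *Dll3* are needed for that clock and for somite borders. H3K27ac marks active promoters and enhancers, whereas H3K27me3 and Suz12 mark Polycomb repression.

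The deposited values are positions of regions enriched over input, called replicate by replicate, with no height. The samples include 1 input per group for H3K27ac and for Suz12, and 2 per group for H3K27me3. With fewer inputs than replicates, the calls within a group are not fully independent. A difference between the inputs of the 2 groups cannot be told apart from one between treatments. The measure used is therefore the covered length, the number of base pairs (bp) of a window that lie in listed regions. Windows reached 5 kb or 50 kb to each side of the transcription start site (TSS), or spanned the gene body. A gene was counted as lower or higher when the covered length of every 4-OHT replicate lay below or above that of every control replicate. With 2 against 2 replicates the smallest two-sided p of an exact permutation test is 0.3333, and with 3 against 3 it is 0.1, so no gene could pass 0.05 by itself, and counts are read beside the share of all genes that met the same rule. Bulk cultures were used, in which fewer cells with a mark and less of the mark per cell cannot be told apart.

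Read depth is unknown. The lists held 32161 to 41062 regions for H3K27ac, 6787 to 16959 for H3K27me3 and 2913 to 4016 for Suz12. Mean covered length after 4-OHT was 0.930 times that of control for H3K27ac (exact permutation p = 0.667), 0.726 times for H3K27me3 (exact permutation p = 0.2) and 1.08 times for Suz12 (exact permutation p = 1). The third FLAG list stood apart, with 192 regions against 8021 and 8257 in the others, and it held no region within 50 kb of any of the 9 genes. Values of Brg1 binding below therefore rest on FLAG replicates 1 and 2. In control cultures 6 of 7 mesoderm markers carried H3K27ac within 5 kb of the TSS in both replicates, with *Kdr* at 0, as did 2 of 3 pluripotency genes, *Pou5f1* and *Nanog*, while *Zfp42* was in 1 list. H3K27me3 was listed in all 3 control replicates at 4 of the 7 mesoderm markers. The endoderm markers *Sox17* and *Foxa2* and the neural markers *Pax6* and *Neurog2* had no H3K27ac and were in H3K27me3 regions in all 3 control replicates.

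The promoters of the 9 genes were compared first for motif letters, since the Notch targets among them are defined by Rbpj binding. Promoters were taken as the 300 bp from 250 bp before to 50 bp after the TSS in mm9. The Rbpj letters GTGGGAA, on either strand, were found in 5 of 9 promoters, those of *Lfng*, *Hes1*, *Hes7*, *Hey1* and *Hey2*, against 5.91% of all 22367 protein-coding promoters. The letters CACGCG, a class C site that Hes repressors bind, were also found in 5 of 9, those of *Lfng*, *Hes1*, *Hes7*, *Hey1* and *Jag1*, against 12.1% of all promoters. The E-box CACGTG was present in the *Lfng* promoter alone among the 9, against 7.77% of all promoters. The T-box letters AGGTGTGA and the Tcf/Lef letters CTTTGAT were in none of the 9, against 1.07% and 3.33% of all promoters. The promoters of 4 genes are shown because each holds Rbpj and class C letters together, and they are written 5′ to 3′ on the strand of the gene with matches to any of these letters in capitals:
*Hes1* promoter, chr16:30065176-30065475, plus strand: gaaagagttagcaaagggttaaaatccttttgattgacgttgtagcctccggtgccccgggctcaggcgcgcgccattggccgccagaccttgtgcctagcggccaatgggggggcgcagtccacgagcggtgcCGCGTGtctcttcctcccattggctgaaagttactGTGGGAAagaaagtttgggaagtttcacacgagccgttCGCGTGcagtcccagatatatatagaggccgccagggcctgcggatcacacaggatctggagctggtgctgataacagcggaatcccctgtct
*Hes7* promoter, chr11:68933656-68933955, plus strand: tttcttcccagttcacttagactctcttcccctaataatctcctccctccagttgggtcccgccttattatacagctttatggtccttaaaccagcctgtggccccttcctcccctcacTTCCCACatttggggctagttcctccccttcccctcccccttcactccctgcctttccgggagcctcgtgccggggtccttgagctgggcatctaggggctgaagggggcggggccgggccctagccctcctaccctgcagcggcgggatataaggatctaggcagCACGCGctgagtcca
*Hey1* promoter, chr3:8666990-8667289, minus strand: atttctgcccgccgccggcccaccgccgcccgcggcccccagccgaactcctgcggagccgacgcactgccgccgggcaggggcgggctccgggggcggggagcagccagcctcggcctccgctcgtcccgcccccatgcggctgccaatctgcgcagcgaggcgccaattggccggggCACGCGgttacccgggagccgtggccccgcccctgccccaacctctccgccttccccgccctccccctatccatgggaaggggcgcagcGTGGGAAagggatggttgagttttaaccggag
*Lfng* promoter, chr5:141083045-141083344, plus strand: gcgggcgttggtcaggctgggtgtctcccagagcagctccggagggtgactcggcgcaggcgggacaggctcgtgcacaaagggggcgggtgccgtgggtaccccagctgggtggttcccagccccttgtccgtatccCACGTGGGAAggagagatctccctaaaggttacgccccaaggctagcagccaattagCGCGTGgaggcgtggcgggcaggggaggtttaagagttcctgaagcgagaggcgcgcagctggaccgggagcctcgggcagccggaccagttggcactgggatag
In the *Hes1* promoter the Rbpj match began 81 bp before the TSS, between 2 class C matches at 116 and 43 bp before it. In the *Lfng* promoter the E-box and the Rbpj letters overlapped, beginning 112 and 109 bp before the TSS, and a class C match followed at 55 bp. The *Hes7* Rbpj match began 131 bp before the TSS, and that of *Hey1* 18 bp after it. *Hey2* held 2 Rbpj matches, 189 bp before and 14 bp after its TSS. A match of letters is a description and not a measured binding site.

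FLAG regions were listed within 50 kb of 8 of the 9 genes, and regions shared between lists near 5. A Brg1-bound region, in which at least 2 FLAG lists shared a base, lay within 5 kb of the TSS of *Dll1*, *Dll3* and *Lfng*, 3 of 9 genes, against 2.12% of all genes. Within 50 kb, *Notch1* and *Hes1* joined them, giving 5 of 9 against 9.35% of all genes. In all there were 9 such regions, each in replicates 1 and 2, and 7 of them lay in H3K27ac regions of both control replicates. *Hes7*, *Hey1* and *Jag1* had FLAG regions in single lists only, and no list held any for *Hey2*. At *Jag1* regions of the first and second list met edge to edge about 37.2 kb upstream without sharing a base. *Dll3* had the most shared regions, with 4. They comprised 2 at 0.33 and 0.86 kb upstream of the TSS, inside the H3K27ac region of the promoter, and 2 at 9.80 and 10.29 kb downstream, at the 3′ end of *Dll3* and nearest to the TSS of *BC089491*.

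Brg1-bound windows are shown for *Dll1*, *Notch1* and *Lfng*, at which H3K27ac within 5 kb was lower in the treated replicates both on bp and as a share of the lists, as the 300 bp around the centre of the bound region on the strand of the gene:
*Dll1* Brg1 window, minus strand: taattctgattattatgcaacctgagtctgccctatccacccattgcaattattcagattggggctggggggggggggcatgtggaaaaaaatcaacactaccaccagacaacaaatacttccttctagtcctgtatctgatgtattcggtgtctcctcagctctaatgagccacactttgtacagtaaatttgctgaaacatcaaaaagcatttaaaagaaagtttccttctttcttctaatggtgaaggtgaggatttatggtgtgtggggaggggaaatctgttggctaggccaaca
*Notch1* Brg1 window, minus strand: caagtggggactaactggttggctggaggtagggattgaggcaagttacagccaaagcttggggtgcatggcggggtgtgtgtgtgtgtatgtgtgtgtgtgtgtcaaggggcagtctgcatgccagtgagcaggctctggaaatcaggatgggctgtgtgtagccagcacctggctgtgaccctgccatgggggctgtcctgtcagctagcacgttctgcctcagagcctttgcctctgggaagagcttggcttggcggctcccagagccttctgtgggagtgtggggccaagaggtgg
*Lfng* Brg1 window, plus strand: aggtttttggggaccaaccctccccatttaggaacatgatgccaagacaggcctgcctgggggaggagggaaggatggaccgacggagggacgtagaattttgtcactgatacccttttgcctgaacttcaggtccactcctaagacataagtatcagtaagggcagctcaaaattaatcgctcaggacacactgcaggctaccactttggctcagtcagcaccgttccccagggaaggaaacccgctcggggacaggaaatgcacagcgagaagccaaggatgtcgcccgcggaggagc
The *Dll1* window, chr17:15516126-15516425, lies 3.34 kb upstream of the TSS in an exon of *A930024N18Rik*, a lincRNA gene on the opposite strand, and was in no H3K27ac region of any list. That of *Notch1*, chr2:26341951-26342250, is intronic and its bound region is centred 17.24 kb downstream of the TSS used, which lies 12841 bp inside the 5′ end of the annotated gene. The *Lfng* window, chr5:141082688-141082987, lies just before the gene, with its bound region centred 0.46 kb upstream of the TSS. Their GC contents were 42.7%, 59.3% and 55.0%. None of the 3 holds any of the letters searched, hence no capitals. Over the 9 Brg1 windows the only match was an E-box in the other *Lfng* window, 1.38 kb upstream. Rbpj letters were in 0 of 9, against 6.95% of the 2390 Brg1-bound windows of the genome.

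In control cultures the 9 genes spanned the full range of H3K27ac at the promoter. Covered length within 5 kb of the TSS was 7951 and 8051 bp at *Hes1*, longer than at 99.9% of all protein-coding genes. *Notch1* followed with 3550 and 3600 bp, *Dll3* with 2950 and 3375 bp, and *Hey1* with 1925 and 2700 bp, and these 4 did not overlap each other. *Jag1* (1525 and 1000 bp), *Hes7* (1281 and 1231 bp) and *Dll1* (725 and 1675 bp) overlapped and had no order. *Lfng* came next with 150 and 700 bp, and *Hey2* had none. For *Hes7* the covered bases lay at and beyond the 3′ end of the gene, nearest to the TSS of its neighbour *Aloxe3*.

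**Figure D1:**
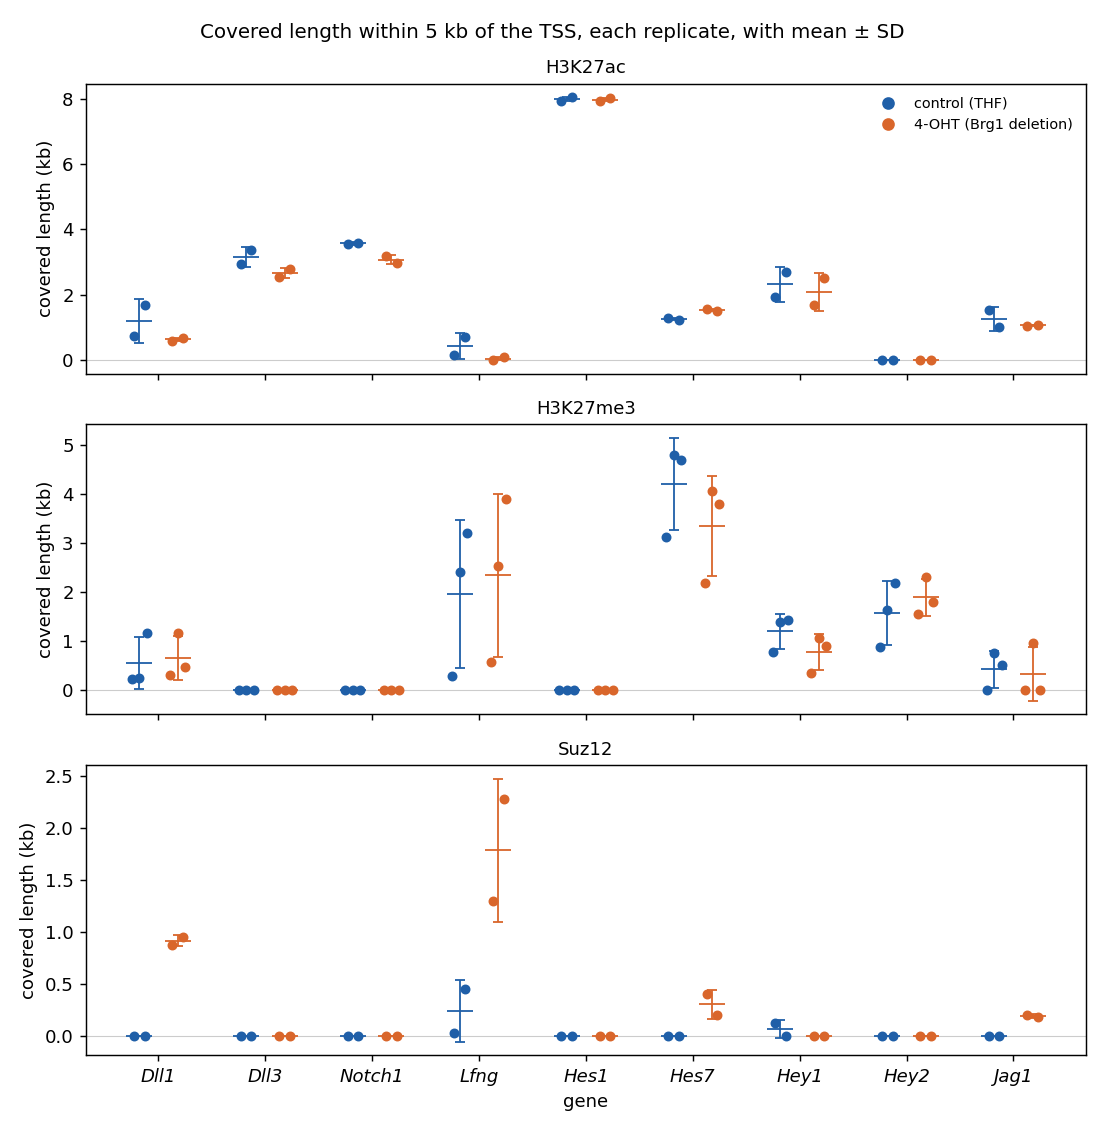
Covered length (kb) within 5 kb of the TSS of each gene for H3K27ac, H3K27me3 and Suz12. Points are replicates, bars the mean ± SD (n = 2 per group for H3K27ac and Suz12, n = 3 for H3K27me3), blue control and orange 4-OHT. *Hes1* kept about 8 kb of H3K27ac in both groups, and Suz12 was listed at *Dll1*, *Hes7* and *Jag1* in the 4-OHT replicates only.

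After 4-OHT, H3K27ac within 5 kb of the TSS was lower at *Dll1*, *Dll3*, *Notch1* and *Lfng* and higher at *Hes7*, the latter over 2.5 kb downstream of the TSS. Thus 4 of the 8 genes with any covered base were lower and 1 was higher. Over all 12002 genes with H3K27ac in this window 12.6% were lower and 39.8% higher. The median difference, 4-OHT minus control, was -306 bp over the 8 genes and 113 bp over all 12002. The exact permutation p of each of the 5 genes was 0.3333, the smallest possible, and 0.636 after Benjamini-Hochberg adjustment over all genes. limma on log2 covered bp called 0 genes of the genome at an adjusted p of 0.05 in this window, with 2374 genes at an unadjusted p under 0.05, among them 2 of the 9, *Notch1* and *Hes7*. When each replicate was scaled to the total length of its list, *Dll1*, *Notch1* and *Lfng* were still lower, whereas the *Dll3* groups overlapped. That scaling moved the median log2 ratio from 0.158 to 0.259, over the 10954 genes for which it was computed.

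Within the 50 kb windows H3K27ac was lower at *Dll1*, *Notch1*, *Hes1* and *Jag1* and higher at *Hes7* and *Hey2*, that is 4 and 2 of 9 genes, against 20% and 39.5% of 17237 genes. Over gene bodies it was lower at *Dll1*, *Dll3*, *Notch1* and *Jag1*, 4 of 8 genes against 18.3% of 12542, and higher at *Hes7* and *Hey1*, 2 of 8 against 33.3%. *Dll1* and *Notch1* were thus the genes that were lower in all 3 windows. Neighbouring genes share the wide window at *Dll1*, *Dll3*, *Lfng*, *Hes7* and *Hey2*, and the only H3K27ac in the *Hey2* window lay at the *Ncoa7* promoter. Around *Hes7* the longest H3K27ac region was at *Per1*, with 5025 and 4225 bp in control and 5500 and 5275 bp in 4-OHT. Short regions lay 9.7 kb upstream of *Hes7*, with 200 and 225 bp against 350 and 300 bp, and 10.2 kb upstream, with 0 and 25 bp against 175 and 200 bp.

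Among the ligands, *Dll1* (chr17:15504318-15513836, minus strand) encodes the main Notch ligand of the presomitic mesoderm. Its H3K27ac within 5 kb covered 725 and 1675 bp in control against 590 and 665 bp in 4-OHT, a mean of 1200 ± 672 bp against 628 ± 53.0 bp (SD, n = 2 each). All treated values were below both control values. The wider of the control values included 625 bp at 2.5 kb upstream, listed in that replicate only. Regions within 0.5 kb of the TSS were in all 4 lists. A region centred 1.8 kb upstream covered 75 and 225 bp in control and was absent from both 4-OHT lists, and that at 47.8 kb upstream, in an intron of *Fam120b*, covered 550 and 1525 bp in control and was likewise absent. The latter held a FLAG region in each of lists 1 and 2, at different bases. Conversely, a region 5.0 kb upstream was listed in 4-OHT only, with 375 and 325 bp. H3K27me3 within 50 kb of *Dll1* covered 3300, 1375 and 2400 bp in control against 1500, 1150 and 475 bp in 4-OHT, lower in every numbered pair but overlapping as groups (exact permutation p = 0.2).

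*Dll3*, an atypical ligand that acts inside the cell on the clock, lies at chr7:29076673-29087257 on the minus strand. Its promoter H3K27ac covered 2950 and 3375 bp in control against 2550 and 2775 bp in 4-OHT, or 3163 ± 301 and 2663 ± 159 bp (SD, n = 2 each). Groups did not overlap, but the difference was 0.842-fold on bp and 0.910-fold as a share of the lists. The wide window held 15304 and 17129 bp in control and 16254 and 16079 bp in 4-OHT, which overlapped. No H3K27me3 beyond a 25 bp region in the third control list, and no Suz12, was listed within 50 kb.

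*Jag1* (chr2:136907192-136942380, minus strand) encodes a Jagged ligand. Its promoter H3K27ac did not separate the groups, with 1525 and 1000 bp in control and 1050 and 1075 bp in 4-OHT (exact permutation p = 1). An intronic region 18.6 kb into the gene was narrower in both 4-OHT replicates, with 2500 and 2675 bp in control and 1925 and 1875 bp in 4-OHT. Gene-body coverage was accordingly 2780 and 3000 bp against 1925 and 1875 bp, or 0.657-fold. The 50 kb values were 4025 and 4000 bp in control and 2975 and 2950 bp in 4-OHT, a difference of the means of 1050 bp. The SD of 17.7 bp in control understates its spread, because regions that differed between the control lists offset each other in the sum. The region at the TSS alone covered 1425 and 1000 bp in control. limma gave an adjusted p of 0.12 for this window.

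*Notch1* (chr2:26313423-26372183, minus strand), the receptor, had the largest difference below control among the 9 in bp of H3K27ac within 50 kb, though not within 5 kb or as a ratio. In its 50 kb window H3K27ac covered 9600 and 11875 bp in control against 7500 and 7475 bp in 4-OHT, or 10738 ± 1609 and 7488 ± 17.7 bp (SD, n = 2 each), 0.697-fold and 0.754-fold as a share of the lists. The groups did not overlap, and limma gave an adjusted p of 0.134. Within 5 kb of the TSS the difference was smaller, 3550 and 3600 bp against 3175 and 2975 bp. With the TSS placed at the 5′ end of the gene, the mean difference was 0 bp within 5 kb, leaving 3 of the 9 genes lower there, and -4650 bp within 50 kb. Most of the wide difference was intronic. The region that holds the printed Brg1-bound window, 16.2 kb downstream of the TSS, covered 2450 and 3475 bp in control against 725 and 950 bp in 4-OHT. A region 20.9 kb downstream, with 325 and 850 bp in control, and another 21.7 kb upstream, with 300 and 325 bp, were in neither 4-OHT list, and a region at 10.1 kb covered 500 and 1250 bp in control against 25 and 0 bp in 4-OHT. The 3′ end went the other way, with 2475 and 1625 bp in control and 3575 and 3475 bp in 4-OHT, and there the nearest TSS used for a protein-coding gene was that of *Sec16a*, outside the window. *Notch1* had no H3K27me3 and no Suz12 region in any list.

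**Figure D2:**
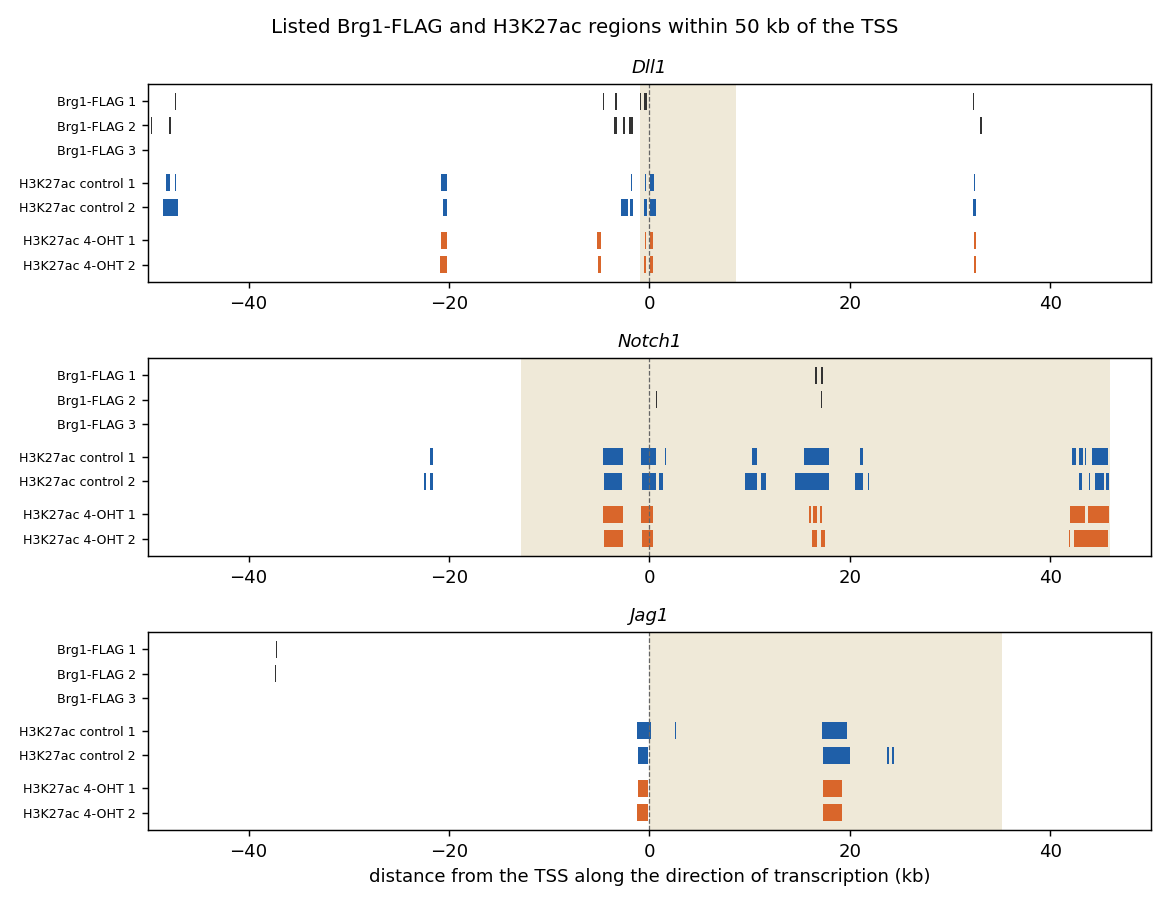
Listed Brg1-FLAG (black) and H3K27ac regions (blue control, orange 4-OHT) of each replicate around *Dll1*, *Notch1* and *Jag1*, by distance from the TSS (kb) along the direction of transcription, with the gene body shaded. In the *Notch1* intron the region around 16.2 kb covered 2450 and 3475 bp in control. In 4-OHT it covered 725 and 950 bp, in separate pieces. The *Dll1* region 47.8 kb upstream was in the control lists only.

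Few whole H3K27ac regions were missing around these genes after 4-OHT, and the counts were below or near the background. Of the 55 regions of both control lists within 50 kb of the 9 genes, 7 were missing from both 4-OHT lists, against 19.8% of 27332 such regions in the genome. When only regions whose nearest TSS was that of the gene were kept, 5 of 24 were missing, and of the 12 of these over 2.5 kb from any TSS 3 were missing, against 33.1% of 13914 in the genome. The 3 were the *Notch1* regions at 20.9 kb downstream and 21.7 kb upstream and a *Hey1* region 31.7 kb downstream, with 75 and 400 bp in control.

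*Lfng* (chr5:141083295-141091497, plus strand) encodes the glycosyltransferase that modifies Notch receptors. It had Brg1-bound, H3K27ac, H3K27me3 and Suz12 regions within 5 kb already in lists without 4-OHT. *Dll1* had them too, but with Suz12 in the 4-OHT lists only. Its promoter H3K27ac covered 150 and 700 bp in control against 0 and 75 bp in 4-OHT, and those 75 bp lay 3.7 kb inside the gene. A region 0.4 kb upstream covered 150 and 375 bp in control and another 1.2 kb upstream 0 and 325 bp. Both overlapped the Brg1-bound regions and were in neither 4-OHT list. H3K27me3 covered 275, 2400 and 3200 bp in control against 575, 2525 and 3900 bp in 4-OHT, higher in every numbered pair though the groups overlapped. Over the gene body alone H3K27me3 was lower in 2 of 3 pairs. Values there were 275, 2275 and 2100 bp in control and 150, 1475 and 2475 bp in 4-OHT. Dropping control replicate 1 alone broke its pair and gave a 5 kb difference of the means of -467 bp. Dropping 4-OHT replicate 1 alone gave 1254 bp. Suz12 covered 25 and 450 bp in control against 1300 and 2275 bp in 4-OHT, or 238 ± 301 and 1788 ± 689 bp (SD, n = 2 each), and the groups did not overlap. The main Suz12 region was 25 and 450 bp wide in control, just inside the gene. In 4-OHT it covered 1175 and 1325 bp, spanned the TSS and reached into the nearer Brg1-bound region.

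Suz12 was higher after 4-OHT at *Dll1*, *Lfng*, *Hes7* and *Jag1*, 4 of the 5 genes with a Suz12 region within 5 kb, and lower at none. Of 2259 genes with Suz12 in this window 32.2% were higher and 5.8% lower, and as a share of the lists 31% were higher, with the same 4 genes among them. Since *Dll1*, *Hes7* and *Jag1* had no Suz12 in either control list, they entered the 5 only through the 4-OHT lists and could only be higher, so the count is a description. *Dll1* had no Suz12 in control and 875 and 950 bp in 4-OHT, most of it in a region 0.6 kb downstream of the TSS. *Hes7* had none in control and 400 and 200 bp in 4-OHT, in an intron 1.0 kb from the TSS. *Jag1* had none in control and 200 and 175 bp in 4-OHT, but the regions of the 2 replicates lay at different places, 0.4 and 1.5 kb into the gene. *Hey1* was listed in a single control replicate, with 125 bp. Each of the 4 genes had an exact permutation p of 0.3333, and 0.877 after adjustment over all genes. limma called 0 genes at an adjusted p of 0.05, with 347 genes of the genome and these 4 at an unadjusted p under 0.05. Among all genes called, 15.3% were lower on bp and 29.6% as a share of the lists. That scaling moved the median log2 ratio from 0.190 to 0.078, over the 1604 genes for which it was computed. The 4-OHT lists also held more Suz12 regions, 3654 and 4016 against 2951 and 2913, and the part of list size in these results was not tested beyond the scaling.

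**Figure D3:**
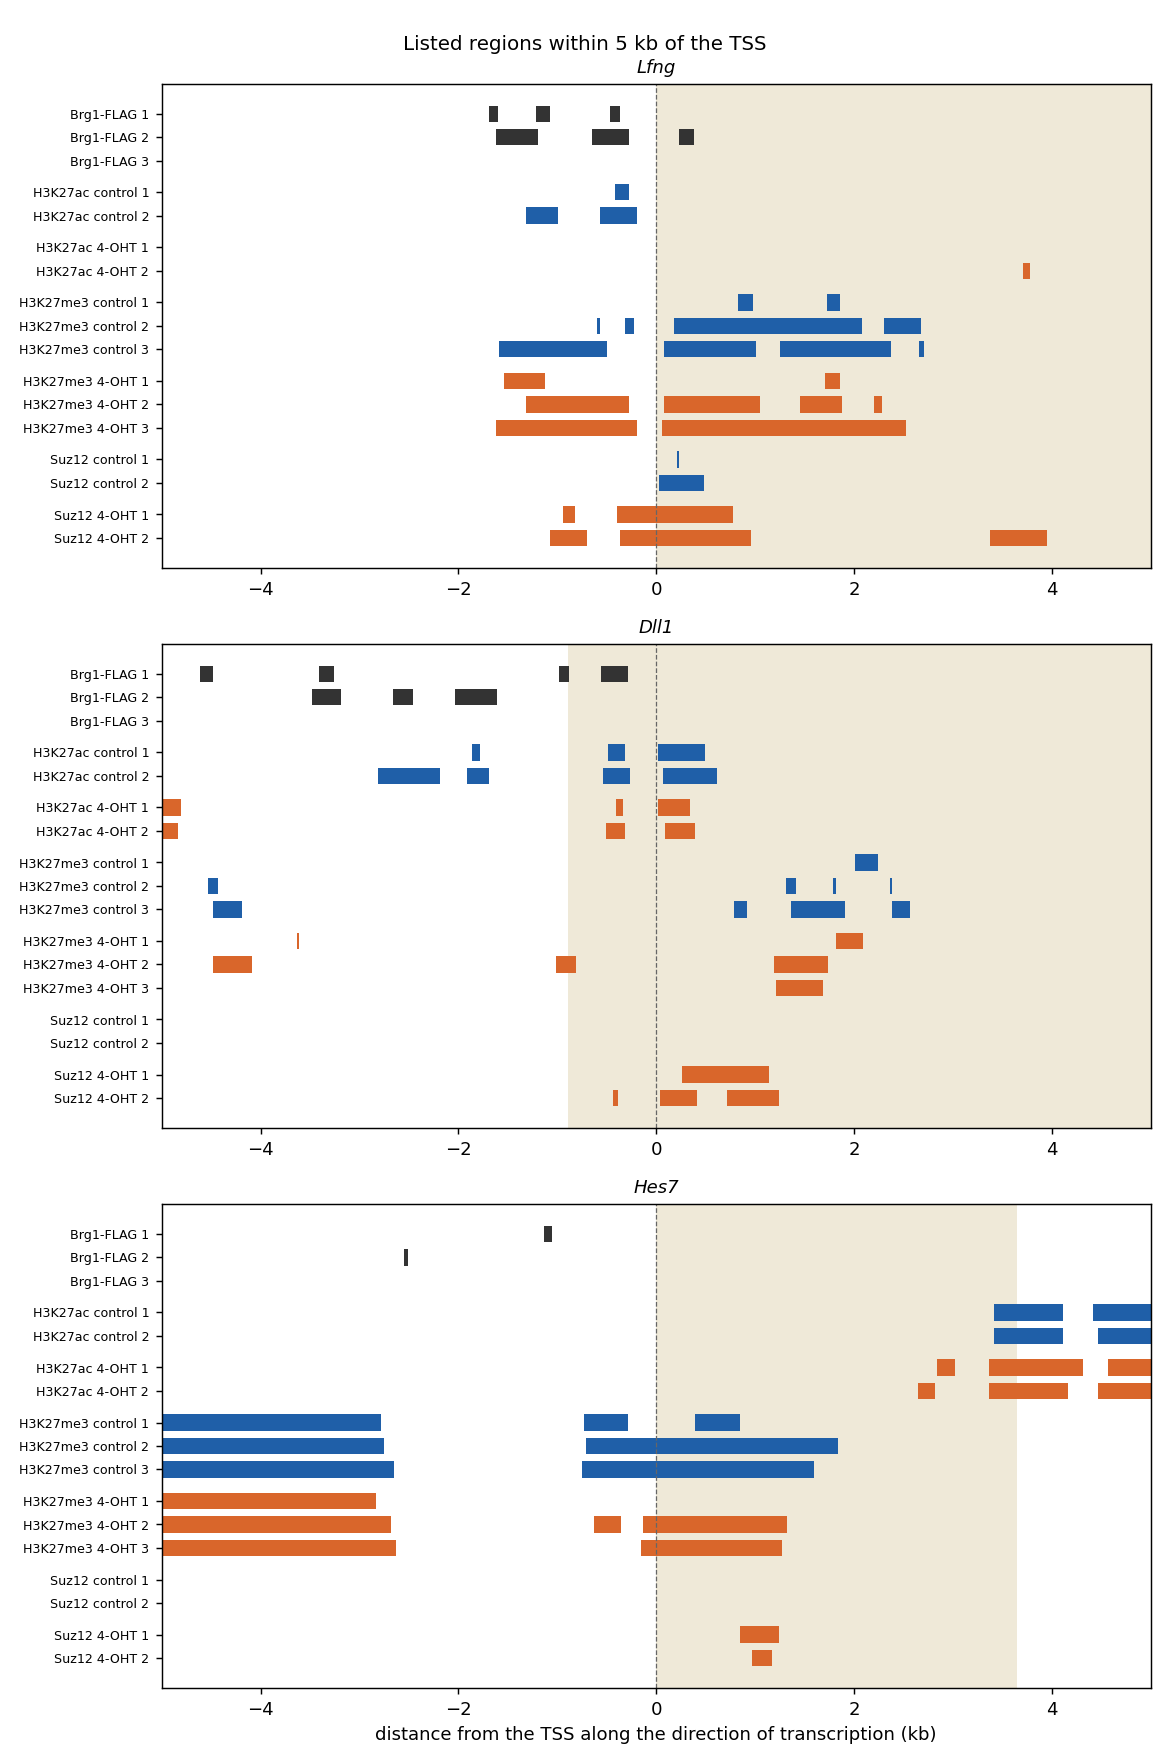
Listed regions of every replicate within 5 kb of the TSS of *Lfng*, *Dll1* and *Hes7*, by distance from the TSS (kb) along the direction of transcription, with Brg1-FLAG in black, control in blue, 4-OHT in orange and the gene body shaded. At *Lfng* the H3K27ac regions upstream of the TSS were in the control lists only. Suz12 covered 1175 and 1325 bp across the TSS in 4-OHT, against 25 and 450 bp just inside the gene in control.

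H3K27me3 lay within 5 kb of the TSS of 6 genes. In control *Hes7* had the most, with 3120, 4795 and 4695 bp, longer than at 97.9% of all genes. *Lfng*, *Hey2* (875, 1625 and 2175 bp) and *Hey1* (775, 1375 and 1425 bp) overlapped each other, and *Dll1* (225, 250 and 1150 bp) and *Jag1* (0, 750 and 500 bp) had less on average. *Dll3*, *Notch1* and *Hes1*, which had long H3K27ac at the promoter, had none. Replicate 1 gave the lowest control value at all 6 genes.

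No gene was lower or higher in H3K27me3 by groups after 4-OHT, 0 of 6, against 12% of 4153 genes lower and 0.193% higher. limma likewise called 0 genes at an adjusted p of 0.05, with 243 genes and 0 of the 6 at an unadjusted p under 0.05. Same-numbered H3K27me3 replicates deviated together, so the pairs were also compared. *Hes7* and *Hey1* were then lower in every pair, 2 of 6 against 43.9% of all genes, and *Lfng* was higher in every pair, 1 of 6 against 0.819%. A sign-flip permutation test over 3 pairs cannot give a p under 0.25, which each of these 3 genes had. *Hes7* went from 3120 to 2170 bp, from 4795 to 4045 bp and from 4695 to 3795 bp, a mean paired difference of -867 ± 104 bp (SD, n = 3 pairs). *Hey1* went from 775 to 350 bp, from 1375 to 1050 bp and from 1425 to 900 bp, or -425 ± 100 bp. Without control replicate 1 alone, whose 4-OHT partner stayed in, the groups no longer overlapped at these genes, and 2 of 6 were lower. The share of all genes under that weaker rule is not given here, so this count has no background. As a share of the shorter 4-OHT lists the *Hes7* ratio turned from 0.794 to 1.10 and *Hey1* moved from 0.643 to 0.859. On that scale *Hey2* was higher by groups, 1 of 6 genes against 4.79% of all genes. None of the 6 was lower, against 5.88% of all genes. The same scaling shifted the median log2 ratio by 0.464, from -0.525 to -0.060, over the 3207 genes for which it was computed. It moved the share of lower among all called genes from 98.4% to 55.1%.

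**Figure D4:**
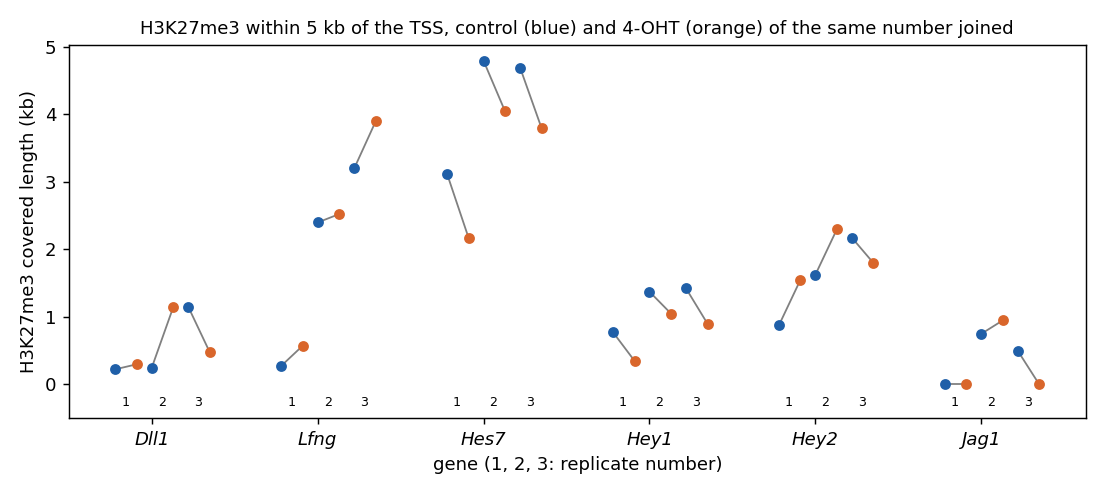
H3K27me3 covered length (kb) within 5 kb of the TSS for the 6 genes with any, with control (blue) and 4-OHT (orange) replicates of the same number joined. All 3 lines slope down at *Hes7* and *Hey1* and up at *Lfng*, and the other genes are mixed.

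The Hes and Hey effectors differed in their marks. *Hes1* (chr16:30064470-30067882, plus strand), a widely expressed repressor, sat in a broad H3K27ac domain of 8950 and 9425 bp in control and 8875 and 9075 bp in 4-OHT. Its promoter values, 7951 and 8051 bp against 7951 and 8026 bp, differed by less than the spread between replicates. The 50 kb window was lower in 4-OHT, 9750 and 10100 bp against 9175 and 9325 bp, of which a region 6.0 kb upstream went from 800 and 675 bp to 300 and 250 bp. As a share of the lists that wide window had a ratio of 1.00 and its groups overlapped. Its Brg1-bound region, 5.77 kb downstream of the TSS, lay in the domain and in H3K27ac regions of all 4 lists.

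*Hes7* (chr11:68933906-68937557, plus strand), the repressor at the core of the segmentation clock, carried H3K27me3 over its TSS, in a region of 900, 2550 and 2350 bp in control and 0, 1725 and 1425 bp in 4-OHT. A further H3K27me3 region centred 5.8 kb upstream covered 5850, 6250 and 5850 bp in control against 4925, 5675 and 5875 bp in 4-OHT. H3K27ac in the 5 kb window was longer, at 1556 and 1506 bp against 1281 and 1231 bp, all of it over 2.5 kb downstream of the TSS. *Hey1* (chr3:8663362-8667039, minus strand), a vascular and cardiac Notch target, had H3K27ac before the TSS and H3K27me3 inside the gene. Its promoter H3K27ac was 1925 and 2700 bp in control and 1675 and 2500 bp in 4-OHT, and the groups overlapped. Over its gene body H3K27ac was higher, with 150 and 75 bp in control and 375 and 539 bp in 4-OHT. *Hey2* (chr10:30552165-30562607, minus strand), which acts in heart and vessels, had H3K27me3 of 1550, 2300 and 1800 bp in 4-OHT, overlapping control, and no H3K27ac, Suz12 or Brg1 region within 5 kb.

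Other genes of the pathway were taken from 2 lists. Of 41 further Notch pathway genes 31 had H3K27ac within 5 kb, of which 7 were lower and 9 higher, or 22.6% and 29.0%, beside 12.6% and 39.8% of all genes. Their median difference was 37.5 bp, beside 113 bp over all genes. As a share of the lists 4 were lower and 13 higher, where 9.17% and 51.4% of all genes were. *Nrarp*, a feedback inhibitor and Notch target, had 3728 and 3851 bp in control and 2000 and 1675 bp in 4-OHT. *Aph1a*, a subunit of the γ-secretase that cleaves Notch, had 1425 and 3100 bp in control and 800 and 900 bp in 4-OHT. The other lower genes included the corepressor *Spen* and the fucosyltransferase *Pofut1*. On the higher side were *Psenen*, also of γ-secretase, *Jag2*, *Numbl* and *Poglut1*. *Psenen* had 2125 and 2550 bp in control and 3200 and 3750 bp in 4-OHT. *Rbpj* itself had 3050 and 3075 bp in control and 3225 and 3400 bp in 4-OHT. H3K27me3 was lower by groups at 2 of 13, *Heyl* and *Mib1*, beside 12% of all genes, and Suz12 at 0 of 9, with 0 higher for either mark. In every numbered pair H3K27me3 was lower at 9 of 13, beside 43.9% of all genes. The median difference was -650 bp, beside -267 bp over all genes. As a share of the lists H3K27me3 was lower by groups at 1 of 13, beside 5.88%. As a share of the lists Suz12 was lower at 3 of 9, beside 13% of all genes.

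Of 25 further segmentation genes 16 had H3K27ac within 5 kb, and 9 were lower and 2 higher, or 56.3% and 12.5%, beside 12.6% and 39.8% of all genes. Their median difference was -356 bp, beside 113 bp over all genes. *Snai1*, a repressor of epithelial genes, had 4995 and 6370 bp in control and 3220 and 3720 bp in 4-OHT. The Wnt-pathway genes *Dact1*, *Lef1* and *Axin2* were lower as well, *Dact1* with 3100 and 4025 bp against 1425 and 1800 bp. *Msgn1*, a regulator of presomitic mesoderm, had 1125 and 1700 bp in control and 450 and 975 bp in 4-OHT. The FGF-pathway genes *Fgf8* and *Dusp4* were higher, *Fgf8* with 5713 and 6763 bp against 6863 and 6963 bp. As a share of the lists 8 of 16 were lower and 3 higher, beside 9.17% and 51.4% of all genes. Suz12 was higher at 4 of 12, *Meox2*, *Ripply2*, *Lef1* and *Wnt3a*, near the 32.2% of all genes, and lower at *Pax3* and *Pax1*. As a share of the lists *Wnt3a*, *Pax3* and *Pax1* overlapped between groups, and *Tbx18*, *Uncx* and *Nkx3-2* were lower instead. H3K27me3 separated the groups at 0 of 15, with 5 lower in every numbered pair, beside 12% and 43.9% of all genes lower. As a share of the lists 2 of 15, *Tbx18* and *Pax3*, were higher in H3K27me3 and 0 lower, beside 4.79% and 5.88% of all genes.

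The genes most like each of the 9 were found from covered length within 5 kb over all 17 lists, leaving out genes within 100 kb. *Notch1* was closest to *Isca1* and *Zbed3*, with a mean absolute difference of 27.9 bp per list for each, *Dll3* to *Plekhg3* (50.0 bp) and *Clic4* (57.4 bp), and *Hes1* to *6430527G18Rik* (57.5 bp) and *Hist1h4a* (107 bp). *Hey2* was closest to *Gpr26* (109 bp) and *1700086L19Rik* (127 bp), *Jag1* to *Gucy2e* (112 bp) and *Tst* (127 bp), and *Hey1* to *Hist1h1e* (175 bp) and *Lrrc24* (188 bp). *Dll1*, *Lfng* and *Hes7* had no near match, the closest being *Fzd1* (291 bp), *Cdx1* (372 bp) and *Cdkn2b* (404 bp), then *Ndufa4l2* (330 bp), *Kcnc1* (421 bp) and *Ttc6* (414 bp).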

How the data were processed

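ChIP-seq of Brg1-FLAG, H3K27ac, H3K27me3 and Suz12 from 28 samples, 11 of them inputs without a list, was used. The authors aligned reads to mm9 with Bowtie (version not given in the sources used here) and called regions per replicate over input by a Poissonian model, at p-value thresholds of 1e-06 for FLAG, with at least 2-fold enrichment, and 1e-12 for the other marks. The 17 deposited lists hold no counts or scores, only chromosome, start and end, with edges at multiples of 25 bp. Per-sample read depth and region heights are unknown, which limits every value to listed length.

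Groups came from the labels. The TSS was the 5′ end of the coding transcript with the longest coding sequence in GENCODE vM1 (mm9), and 1 shared bp counted as overlap. Covered length was computed in Python 3.11.15 (NumPy 2.4.6) and compared by two-sided exact permutation tests (SciPy 1.17.1) with Benjamini-Hochberg adjustment, over 60 comparisons for the 9 genes. limma 3.58.1 (R 4.3.3) on log2(bp + 100) was an alternative. Code was tested on simulated data. Genes named beyond the 9 were those of the 2 lists whose groups did not overlap, up to 5 per mark and direction by difference of means, and, chosen after its values were seen, *Rbpj*. Some genes that this rule selects are not reported here. The members and lists were chosen with earlier results of these data known. Replicates are biological per the labels. Same-numbered H3K27me3 replicates correlated in their deviations from the group means (0.932, 0.875 and 0.796), so that mark was also compared by pairs, although control 2 with 4-OHT 3 (0.692) and control 3 with 4-OHT 2 (0.760) were nearly as high and mainly replicate 1 stood apart. The value was 0.419 for H3K27ac and 0.444 for Suz12, with 2 pairs each.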

Additional observations from a re-analysis of the deposited data

How the results depend on the processing

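Of the 4 genes lower in H3K27ac within 5 kb, 2 were lower when regions under 200 bp were left out, 1 when regions were counted instead of bp, and 0 with limma. Within 50 kb the 4 became 2 by number of regions and 0 with limma. Leaving out a replicate weakens the rule and can only keep or add genes, here and for H3K27me3 and Suz12 below. It gave 4 to 6 and 5 to 6 genes, so these counts are no test of stability. The 0 genes lower in H3K27me3 became 1 in a window of 10 kb, 2 in the paired replicate block, and 0 to 2 when a replicate was left out, the 2 without control replicate 1. The 4 genes with separate Suz12 groups became 0 with limma and 4 to 5 when a replicate was left out. The 5 genes with a shared Brg1 region became 8 with any list, 0 with all 3 lists, 3 within 5 kb, and 0 to 5 when a FLAG replicate was left out, 0 without replicate 1 or replicate 2. In each case limma called 0 genes of the genome, and shares of all genes for the paired block and for Brg1 within 5 kb are given above. For the other settings in this section the share of all genes is not given, so those counts have no background. The block changed no other count by over 1.5 times. Of 28 single-gene differences 12 changed sign under at least 1 of their alternatives. For those whose groups did not overlap this happened 2 times: the *Lfng* H3K27ac difference was 37.5 bp over the gene body, where control had none, and that of *Hes1* within 50 kb was 31.6 bp as a share of the lists. The other sign changes were of differences whose groups overlapped, among them as a share of the lists *Hes7* H3K27me3, at 366.6 bp, and H3K27ac of *Dll3* within 50 kb, at 1166 bp, and of *Hes1* within 5 kb, at 573 bp. With the TSS at the 5′ end of the gene *Notch1* H3K27ac within 5 kb differed by 0 bp. Depth and peak height are unknown, so a region near the calling threshold can appear or vanish without a measured change in signal, and the cause of these shifts was not tested.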
